A study of Mus musculus with 4 samples.

Results

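The integrated stress response was examined through 10 genes in whole mouse embryos that lacked Cop1. These genes were the 4 kinases of the translation factor eIF2alpha (Eif2ak1, Eif2ak2, Eif2ak3 and Eif2ak4), the subunits that bring a phosphatase to eIF2alpha (Ppp1r15a and Ppp1r15b), the transcription factor gene Atf4, and the genes Atf5, Ddit3 and Chac1 that act with it or below it. They were chosen by name, as all probe sets whose only listed gene symbol was among these 10, which gave 23 of 45037 probe sets and 10 of 18193 genes. Embryos were taken on embryonic day 9.5, and COP1 is the E3 ubiquitin ligase that the null embryos lack. The control group is labelled wild-type in the sample titles, but its pool held +/+ and +/- embryos. RNA of 6 null embryos was mixed into 1 pool and RNA of 6 controls into another, and each pool was split into 2 portions that were labelled and hybridised on separate arrays, 4 arrays in all. The 2 arrays of a genotype are therefore portions of the same RNA, and every p-value, SE and interval below measures only the spread between such portions. The embryos' ages beyond the day of collection, their strain and the nature of the null allele were not given in the sources used here.

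In the integrated stress response, different kinases sense different stresses and phosphorylate the same factor, eIF2alpha. HRI (Eif2ak1) answers to lack of heme, PKR (Eif2ak2) to double-stranded RNA, PERK (Eif2ak3) to misfolded protein in the endoplasmic reticulum and GCN2 (Eif2ak4) to lack of amino acids. Phosphorylated eIF2alpha lowers general translation while the mRNA of Atf4, which carries upstream open reading frames, is translated more, and ATF4 then switches on genes of amino acid supply, Ddit3 and Ppp1r15a, the latter of which ends the response. The arrays measured mRNA alone, so neither phosphorylation of eIF2alpha nor translation of these factors was observed.

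Values are log2 expression values, so a step of 1 unit is a doubling, and differences are given as null minus control. A gene was called risen or fallen when limma's adjusted p was under 0.05 and the fold at least 1.5, and a gene with several probe sets was represented by the one with the highest mean. Pearson's r over all probe sets, a description and not a test, was 0.998 within both pools and 0.980 to 0.982 between them. Cop1, the targeted gene, read 11.35 and 11.26 in controls against 9.67 and 9.77 in nulls, a difference of -1.58 (SE 0.08, limma, adjusted p = 0.000728). Whether this probe set covers the deleted sequence was not tested. The 3' minus 5' signals of the Gapdh and actin control probe sets, a measure of RNA integrity, lay between -0.06 and 0.19 log2 units on all arrays, while that of the transferrin receptor control was 1.52 and 1.31 in the control pool and 1.92 and 1.72 in the null pool.

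Of the 10 genes, 4 rose, 1 fell and 5 did not pass. The risen genes were Chac1, Ddit3, Atf4 and Ppp1r15a, and the fallen gene was Eif2ak1. Over all 18193 genes, 652 rose (3.58%) and 1467 fell (8.06%), and either call was made for 11.6%. The median difference of the 10 genes was -0.00048 log2 units beside -0.02 over all genes. Per probe set, 7 of 23 rose and 1 fell, against 6.76% and 6.96% of all probe sets, and 8 of 23 had either call, against 13.7%. Both null arrays lay above both control arrays for 10 probe sets and below them for 7, shares found in 32.6% and 32.7% of all probe sets. Of the 10 genes, 5 lay above and 4 below in this sense, beside 28.9% and 39.3% of all genes. Centring the arrays on their poly-A spikes, RNAs added during labelling, moved the median of all genes to -0.26 and the share of rises among all calls from 30.8% to 9.87%. The spike medians were 7.40 and 7.63 in controls and 7.67 and 7.83 in nulls. Portions of a pool thus differed in their spikes too, which limits the precision of this scale. On that scale Chac1, Ddit3 and Atf4 still rose, Eif2ak1 fell, Eif2ak2 passed as a fall (-0.62) and Ppp1r15a did not pass (0.49, limma, adjusted p = 0.0298). With the mean of all probe sets of a gene, 5 of the 10 rose and 0 fell, beside 680 and 1103 of all genes. Eif2ak4 was then called as a rise (0.93) and Eif2ak1 was not called (-0.18).

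**Figure D1:**
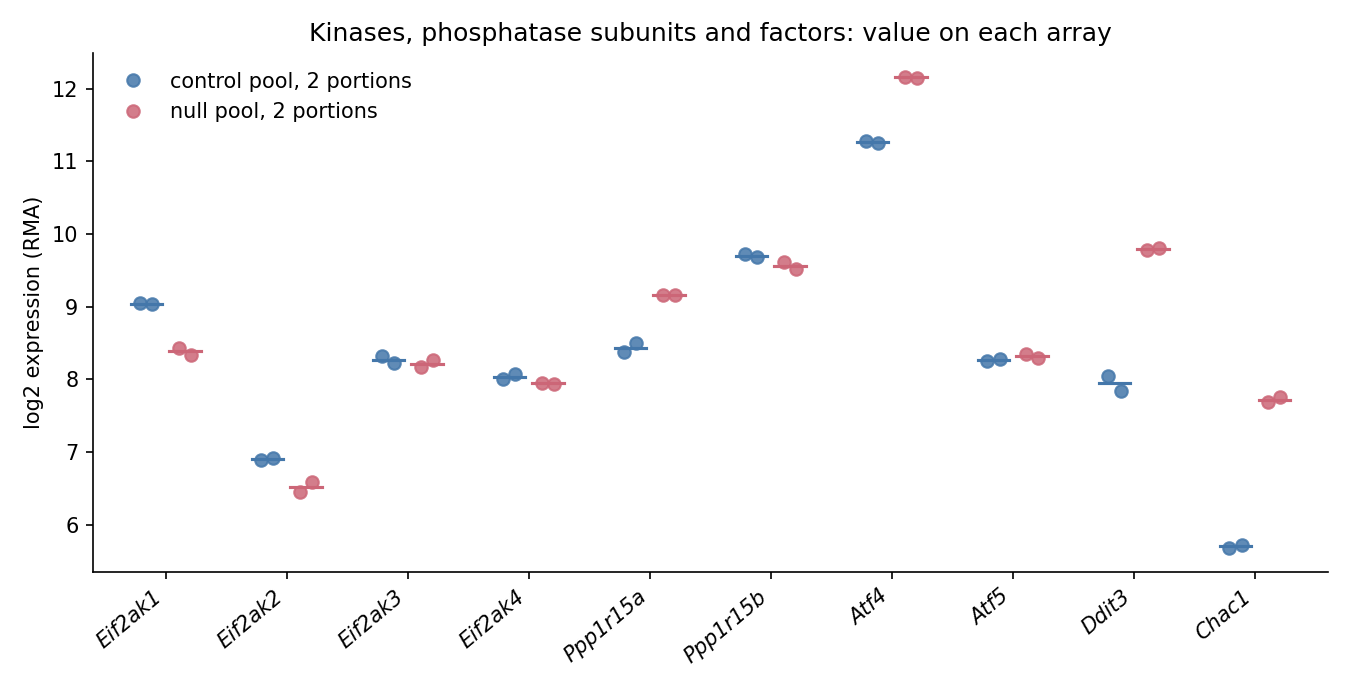
Log2 expression (vertical axis) of the probe set that represents each of the 10 genes, with a point for each of the 2 portions of the control and null pools and a line at their mean. The portions lie apart from the other pool's for Atf4, Ddit3, Chac1, Ppp1r15a, Eif2ak1 and Eif2ak2, overlap for Eif2ak3, and nearly touch for Atf5, Eif2ak4 and Ppp1r15b; levels of different genes come from different probes and cannot be set against each other.

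Chac1, which encodes an enzyme that degrades glutathione, had the greatest rise of the 10. It read 5.68 and 5.73 in controls and 7.69 and 7.75 in nulls. Both null arrays thus lay about 2 log2 units above both control arrays, and portions of a pool differed by at most 0.06. The difference was 2.02 log2 units (SE 0.07, 95% interval 1.85 to 2.19), which is 4.05-fold (limma, adjusted p = 0.000549). It ranked 39 of 18193 genes from the top, with 99.8% of genes below it. Chac1 has only this listed probe set.

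Ddit3 encodes CHOP, a transcription factor of the C/EBP family that dimerises with other bZIP proteins and is tied to cell death under lasting stress. It read 8.05 and 7.84 in the control pool and 9.78 and 9.81 in the null pool. The groups were far apart, and the control portions differed more from each other (0.21) than the null portions did (0.03). The difference was 1.85 (SE 0.09), or 3.60-fold (limma, adjusted p = 0.00077), which placed Ddit3 47th from the top. Its other probe set, 1443897_at, read 6.09 and 5.97 against 7.55 and 7.37 and also rose, by 1.43 (SE 0.09).

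Atf4 itself rose less far. Its leading probe set gave 11.29 and 11.25 for the control pool and 12.17 and 12.15 for the null pool, with no overlap. The difference was 0.89 (SE 0.06), or 1.85-fold (limma, adjusted p = 0.00131). A second probe set, 1438992_x_at, read 9.86 and 9.72 against 10.79 and 10.57 and gave 0.89 as well (SE 0.10). The third, 1439258_at, read 5.601 and 5.43 against 5.59 and 5.77, its portions overlapped, and its difference of 0.16 did not pass (95% interval -0.09 to 0.42). The interval of Atf4, 0.73 to 1.05, lay wholly under those of Ddit3, 1.61 to 2.08, and Chac1. That of the other Ddit3 probe set was 1.19 to 1.67, so probes of 1 gene also differed. How far different probes compress a change was not tested, so these intervals do not rank the changes in mRNA.

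Atf5, a relative of Atf4 whose mRNA also carries upstream reading frames and which takes part in the mitochondrial stress response, did not pass. Its only probe set read 8.25 and 8.28 in the control pool and 8.35 and 8.30 in the null pool. Both null arrays were above both control arrays, but by as little as 0.01 between the nearest portions. The difference was 0.05 (95% interval -0.11 to 0.22, limma, adjusted p = 0.577). Atf4's difference of 0.89 lay outside this interval, which measures only the spread between portions. How far the probes of Atf5 compress a change was not tested, so a rise in its mRNA may have been missed. With poly-A centring the sign turned to -0.18.

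The phosphatase subunits went apart. Ppp1r15a encodes GADD34, the stress-induced subunit that directs protein phosphatase 1 to eIF2alpha. Its only probe set read 8.38 and 8.49 in the control pool and 9.16 on both null arrays. Every null value was above every control value, and the difference of 0.72 (SE 0.07) was 1.65-fold (limma, adjusted p = 0.00275). Ppp1r15b encodes CReP, the subunit present without stress. It read 9.72 and 9.68 against 9.61 and 9.52, a difference of -0.14 that did not pass (95% interval -0.32 to 0.04, adjusted p = 0.209). Its other probe set read 6.99 and 7.07 against 7.003 and 7.11, overlapped, and gave 0.03. The intervals of the 2 genes' differences, 0.54 to 0.91 for Ppp1r15a and -0.32 to 0.04 for Ppp1r15b, did not meet. They come from different probes, so they do not rank the changes in mRNA. The catalytic subunits of the phosphatase, Ppp1ca, Ppp1cb and Ppp1cc, read -0.20, 0.21 and -0.11 without a call.

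The 250 bases before the start of the 4 risen genes are shown because they rose together, and to set the known response elements of stress factors beside their values. Sequences are from RefSeq, build GRCm38.p6, which held windows for 9 of the 10 genes, and positions are counted back from the transcription start, -1 being the base before it. Capitals mark matches, on either strand, to TGATGNAA (the composite C/EBP-ATF element bound by ATF4), TGACGTCA (the cyclic AMP response element) or TGACTCA (the AP-1 element bound by JUN and FOS proteins), and no matches overlap.
Chac1, chr2:119350992-119351241, plus strand: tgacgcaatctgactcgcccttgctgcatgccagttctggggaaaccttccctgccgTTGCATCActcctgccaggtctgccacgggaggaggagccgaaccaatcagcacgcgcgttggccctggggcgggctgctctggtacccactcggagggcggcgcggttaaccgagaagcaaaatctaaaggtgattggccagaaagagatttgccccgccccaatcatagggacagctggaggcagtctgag
Ddit3, chr10:127290543-127290792, plus strand: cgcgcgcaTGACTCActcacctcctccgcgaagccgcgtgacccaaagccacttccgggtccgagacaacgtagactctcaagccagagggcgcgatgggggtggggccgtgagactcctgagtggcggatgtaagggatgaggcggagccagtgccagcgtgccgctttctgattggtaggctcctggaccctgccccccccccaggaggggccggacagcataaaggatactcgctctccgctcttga
Ppp1r15a, chr7:45526269-45526518, minus strand: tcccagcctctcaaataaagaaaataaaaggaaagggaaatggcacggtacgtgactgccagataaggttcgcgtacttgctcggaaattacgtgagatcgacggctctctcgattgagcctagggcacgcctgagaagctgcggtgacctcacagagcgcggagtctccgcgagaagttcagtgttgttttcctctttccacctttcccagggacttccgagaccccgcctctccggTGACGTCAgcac
Atf4, chr15:80254934-80255183, plus strand: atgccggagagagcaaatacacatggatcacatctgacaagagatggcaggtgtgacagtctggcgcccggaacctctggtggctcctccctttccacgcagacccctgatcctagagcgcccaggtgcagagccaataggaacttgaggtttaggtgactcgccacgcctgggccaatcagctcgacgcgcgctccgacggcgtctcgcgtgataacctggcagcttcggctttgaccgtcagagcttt
Chac1 held a C/EBP-ATF match, TTGCATCA, at -193 to -186, an element found in 3.45% of all 32851 windows of that length. Ddit3 held TGACTCA at -242 to -236, found in 4.46% of windows. Ppp1r15a held TGACGTCA at -12 to -5, found in 1.55%. The Atf4 window held none of these motifs, nor did those of the kinase genes and Atf5. These matches describe letters and not binding.

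Among the kinases, read by their leading probe sets, Eif2ak1 fell and the other kinase genes did not pass. The leading probe set of Eif2ak1, 1421901_at, read 9.05 and 9.03 in the control pool and 8.44 and 8.34 in the null pool. Its difference of -0.66 (SE 0.07) was 1.58-fold, close to the fold limit (limma, adjusted p = 0.00326). The probe set 1421900_at, at -0.57 (SE 0.06), read 8.70 and 8.72 against 8.13 and 8.15, lower on both null arrays but 1.48-fold and so short of the limit. A further probe set, 1436006_at, was lower on both null arrays too (-0.46), whereas the dimmest ones, 1453902_at and 1430696_at, read higher on both (0.31 and 0.46) without a call. The mean of all 5 probe sets differed by -0.18 and did not pass the fold limit. In whole embryos, fewer cells that express a gene and less mRNA per cell cannot be told apart.

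HRI is best known in red cell precursors, and markers of primitive erythroid cells were read beside it. Of 10 measured markers 2 fell, Klf1 (-0.79), an erythroid transcription factor gene, and Epb42 (-0.68), a membrane protein gene, and 0 rose, with a median of -0.06. Falls made up 8.06% and rises 3.58% of all genes. The embryonic globin genes Hba-x, Hbb-bh1 and Hbb-y differed by -0.06, -0.04 and -0.05, and Alas2, the erythroid enzyme of heme synthesis, by 0.07, none with a call. The globin probe sets read 14.30 to 14.45 on all arrays. Whether signals this bright still follow the amount of RNA was not tested, so they may hide a change. Tal1, another erythroid transcription factor gene, read -0.58, just short of the fold limit (limma, adjusted p = 0.0053). The summed level of the list, which is mostly that of the globin genes, was 16.10 on both control arrays against 16.05 and 16.03 in nulls (log2), and that of the 7 other markers was 12.34 and 12.40 against 12.27 and 12.20. Their part in the fall of Eif2ak1 was not tested.

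Eif2ak2 was lower without reaching the fold limit. It read 6.90 and 6.92 in the control pool and 6.45 and 6.59 in the null pool, with no overlap. The difference was -0.39 (SE 0.08), or 1.31-fold, with an adjusted p of 0.0176 in limma. Its other probe sets gave -0.58 and -0.26, and the portions overlapped in the latter. Eif2ak2 is itself an interferon-inducible gene, and of 19 measured interferon response genes 0 rose and 1 fell, Ifit2 (-0.95), an RNA-binding antiviral gene, with a median of -0.02. Over all genes 3.58% rose and 8.06% fell, so these counts single out no direction. Without control replicate 1 or without null replicate 1 the falls were 2. Only 13 of the 19 were left without the dimmest 40% of probe sets, and a fall of the dim ones could have been missed.

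Eif2ak3 read 8.31 and 8.23 in the control pool and 8.17 and 8.27 in the null pool, and the groups overlapped. Its difference was -0.06 (95% interval -0.25 to 0.14, limma, adjusted p = 0.626), and its other probe sets gave 0.04 and -0.0029, also with overlap. No probe set of this PERK gene thus separated the pools. The sign of the leading value turned to 0.0089 when quantile normalization was applied once more.

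For Eif2ak4 the probe sets disagreed. The leading one, 1421389_a_at, read 8.003 and 8.07 against 7.95 and 7.94, a difference of -0.09 (95% interval -0.25 to 0.08, limma, adjusted p = 0.363). The other, 1443235_at, read 4.63 and 4.72 in the control pool and 6.54 and 6.69 in the null pool. That difference of 1.94 (SE 0.08) was 3.83-fold (adjusted p = 0.000649), among the greatest of the 23 probe sets, while the leading one lay near 0. The mean of both gave 0.93 and a call. Of 7781 genes with several probe sets and no call, 838 (10.8%) had another probe set that rose and 729 (9.37%) one that fell. Which transcripts of Eif2ak4 these probe sets match was not tested, so no direction is given for the gene.

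**Figure D2:**
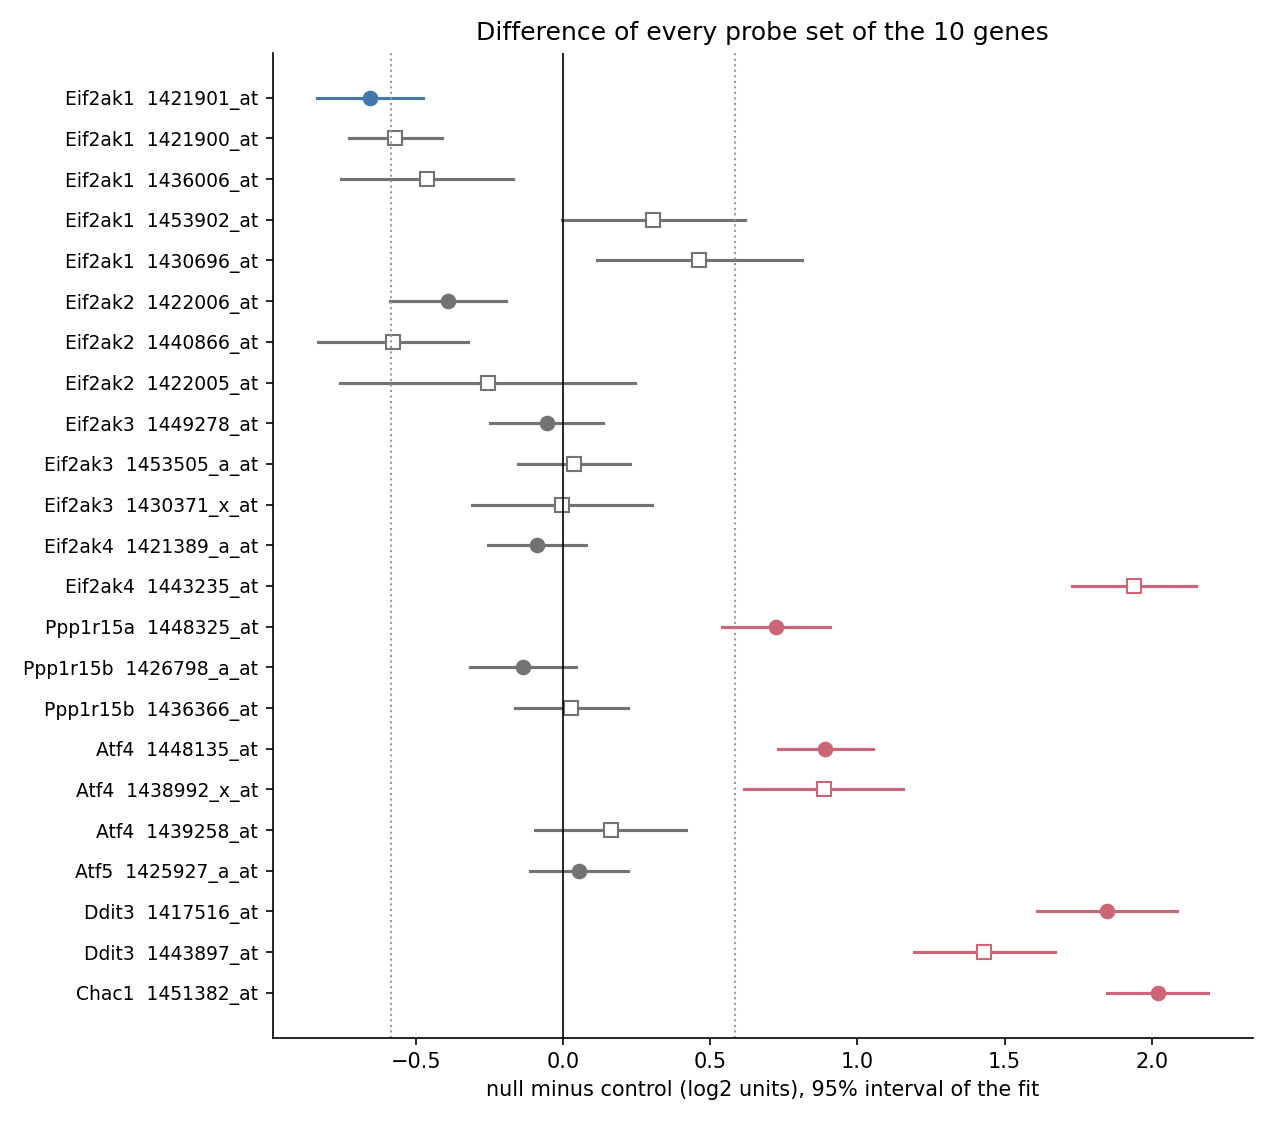
Difference between the null and control pools (log2 units, horizontal axis) for all 23 probe sets, with the 95% interval of the fit; filled circles are the probe sets that represent a gene, open squares the others, red marks rises, blue falls and grey no call, and dotted lines the 1.5-fold limits. The probe sets of Atf4 and Ddit3 lie to the right of 0, though the interval of the third of Atf4 (at 0.16) crosses 0. Those of Eif2ak1 lie on both sides of 0, and those of Eif2ak4 lie at -0.09 and 1.94.

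Other parts of the pathway were read from lists of known genes. Over these lists, which held 127 measured genes beside the 10, 38 rose and 5 fell with a median of 0.07, and with poly-A centring 26 rose and 18 fell. Of all 18193 genes, 3.58% rose and 8.06% fell, and with poly-A centring 352 rose and 3215 fell. Of 12 genes that regulate the kinases or the phosphatase, 0 rose and 0 fell in limma, beside 11.6% of all genes called, and 7 had an unadjusted p under 0.05, as had 44.3% of all genes. Dnajc3, an inhibitor of PERK and PKR, read -0.44 and Tarbp2, a PKR inhibitor, -0.38, both short of the fold limit and both past it with poly-A centring. Gcn1 and Impact, an activator and an inhibitor of GCN2, read -0.26 and -0.11, and Dele1 and Oma1, which pass mitochondrial stress to HRI, 0.30 and -0.09, all without a call. Of 7 measured subunits of eIF2 and its exchange factor eIF2B, 1 fell, Eif2b2 (10.52 and 10.43 against 9.80 and 9.87, a difference of -0.64), and 0 rose.

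Other targets of ATF4 and CHOP rose in 28 of 38 cases and fell in 1, with a median difference of 1.03 log2 units. Over all genes 3.58% rose and 8.06% fell, with a median of -0.02. The risen ones spanned 0.63 to 3.51, and 21 rose with poly-A centring. Stc2, a secreted glycoprotein gene, read 7.04 on both control arrays against 10.58 and 10.53 (11.4-fold). Its other probe sets rose less, 4.72-fold and 2.60-fold. Slc7a3, a transporter of cationic amino acids, read 5.88 and 5.76 against 8.63 and 8.63, a rise of 2.81. Vldlr, a lipoprotein receptor gene, rose 5.27-fold, and its other probe sets rose 1.60-fold to 5.74-fold. Ddit4, an inhibitor of mTORC1 (2.59), Ero1a, an oxidase of the endoplasmic reticulum (2.31), and the angiogenic factor gene Vegfa (2.16) rose as well. Several genes of this list, not only the last 3 named, are also known to answer to low oxygen. The part of low oxygen in their values was not tested. These lists were chosen with earlier results of these data known, so their counts are no independent evidence of a direction.

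The targets did not move as a block. The 9 genes that did not pass ranged from -0.47 to 0.47 and, named after their values were seen, included the serine synthesis genes Phgdh (-0.03) and Psph (0.18), the cystine transporter gene Slc7a11 (0.20) and the stress gene Nupr1 (0.47). The fallen target, also named after its value was seen, was Slc38a2, an amino acid transporter gene, which read 11.58 and 11.59 against 10.72 and 10.70 (-0.87). Its other probe sets, 1429593_at and 1429594_at, were called in the opposite direction (0.72 and 0.78). The C/EBP-ATF element TGATGNAA stood in the 250 bases before 5 of 20 risen targets with a window, Vldlr, Atf3, Asns, Pck2 and Jdp2. It stood before 4 of 9 others with a window, Nupr1, Fgf21, Aars and Slc7a11, beside 3.91% of 27025 genes. The list was made of known targets of ATF4 and CHOP, so a share above that of all genes is no independent result.

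Genes of the other branches of endoplasmic reticulum stress gave 3 rises and 0 falls among 24, with a median of -0.06. Among all genes 3.58% rose and 8.06% fell, with a median of -0.02. Herpud1 (0.94), a gene of protein degradation that ATF4 also activates, and Derl3 (1.06), of the same process, rose. Atf6, the sensor of another branch, was called (0.78), as was its probe set 1453288_at (0.78), but its probe set 1435444_at read -0.20, and the call was lost when control replicate 1 (0.54), null replicate 1 (0.75, limma, adjusted p = 0.12) or null replicate 2 (0.80, adjusted p = 0.112) was left out. The chaperone gene Hspa5 (12.74 and 12.76 against 12.88 and 12.86) differed by 0.12, Xbp1, the factor of the IRE1 branch, by -0.15 and Ern1, which encodes IRE1, by -0.20, none with a call.

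Partners of ATF4 and CHOP among the bZIP factors gave 4 rises and 0 falls of 16, with a median of 0.11. Rises made up 3.58% and falls 8.06% of all genes. Cebpb, a partner of both, rose by 0.94, Nfil3 by 0.81 and Nfe2l2, the factor of the oxidative stress response, by 0.79. Crebzf (0.77) was also called, but its 5 probe sets included one called in the opposite direction (-1.15). Without control replicate 1 there was 1 fall, and with poly-A centring 1 of the 16 rose and the median was -0.13. Cebpg, a partner of ATF4 at amino acid genes, read 0.10 without a call. A list drawn up for turnover and partners of the ATF4 protein gave 3 rises and 2 falls of 11, beside the same shares of all genes, 3.58% and 8.06%. The oxygen-sensing prolyl hydroxylase genes Egln3 (8.18 and 8.28 against 10.54 and 10.51) and Egln1 (1.23) and the deubiquitinase gene Usp11 (0.74) rose. The tribbles genes Trib1 (-1.10) and Trib2 (-0.70) of this list fell, and whether their proteins act on ATF4 was not tested. The ubiquitin ligase genes Btrc and Fbxw11, which mark ATF4 for degradation, read 0.04 and -0.07 without a call.

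**Figure D3:**
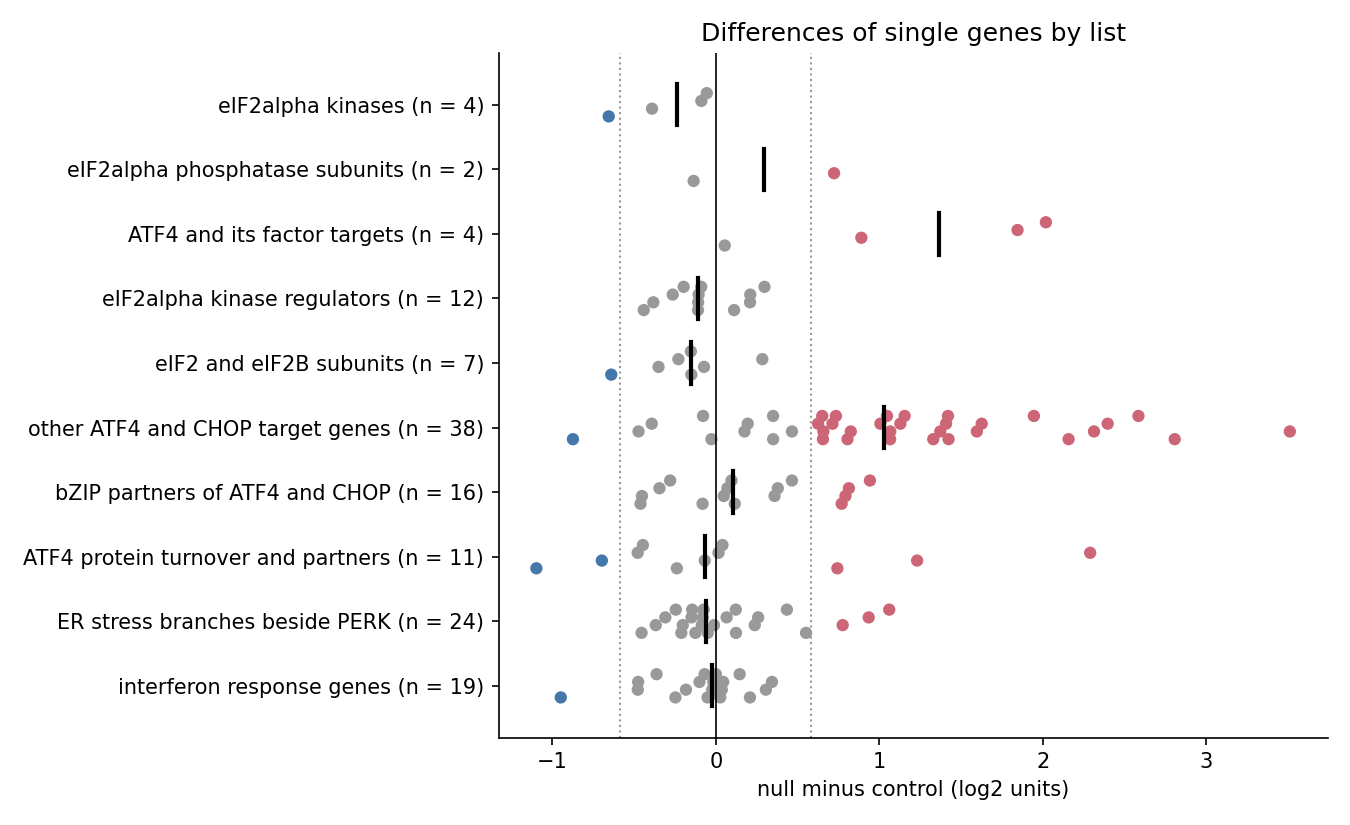
Difference between the null and control pools (log2 units) for each gene of 10 lists, with 1 point per gene, red for rises, blue for falls and grey for no call; black bars are medians and dotted lines the 1.5-fold limits. The other targets of ATF4 and CHOP have their median at 1.03, beside -0.02 over all genes. By their representing probe sets the kinases, their regulators and the eIF2 subunits hold 0 rises, beside 3.58% of all genes. The other probe set of Eif2ak4, which rose by 1.94, is not shown here.

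Markers of the tissues of a whole embryo were present and some differed between pools. Neural tube, heart and erythroid markers reached 11.29 (Sox2), 12.46 (Actc1) and 14.45 (Hbb-y) in the control pool, above the upper quartiles of the control arrays, 8.17 and 8.20. The 4 measured markers of maternal decidua and trophoblast read 3.32 to 3.60 there, under the lower quartiles, 4.43 and 4.40. Falls without rises were found for 3 of 8 neural tube markers (median -0.41), 3 of 8 somite markers (-0.27), 3 of 8 macrophage markers (-0.58) and 3 of 7 markers of yolk sac endoderm and early liver (-0.11). Over all genes 8.06% fell and 3.58% rose. The neural tube count rests on small margins: without null replicate 2 it was 1, as Nes (-0.57) and Neurog2 (-0.52) missed the fold limit, and 1 marker rose without null replicate 1, without control replicate 2 or with quantile normalization once more. Hes5 (-0.75), Pax1 (-1.59), C1qa (-1.14) and Alb (-2.09) had the largest change of their lists. The highest values of the same lists were those of Otx2 (0.58, just short of the fold limit), Foxc2 (0.45), Fcgr1 (0.10) and Apoa4 (0.38), none with a call. Endothelial markers gave 3 rises of 8, among them Kdr (0.74), and 0 rises with poly-A centring, and heart markers 2 rises, Nppa (1.49) and Myh7 (2.29-fold), and 2 falls, Myl2 (-0.80) and Tnni1 (-0.75), of 10. Summed levels of the endothelial list were 11.30 and 11.26 in the control pool and 11.68 and 11.68 in the null pool, and those of the neural tube list 12.63 and 12.67 against 12.38 and 12.32 (log2). The part of these differences in the values of the stress response genes was not tested.

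**Figure D4:**
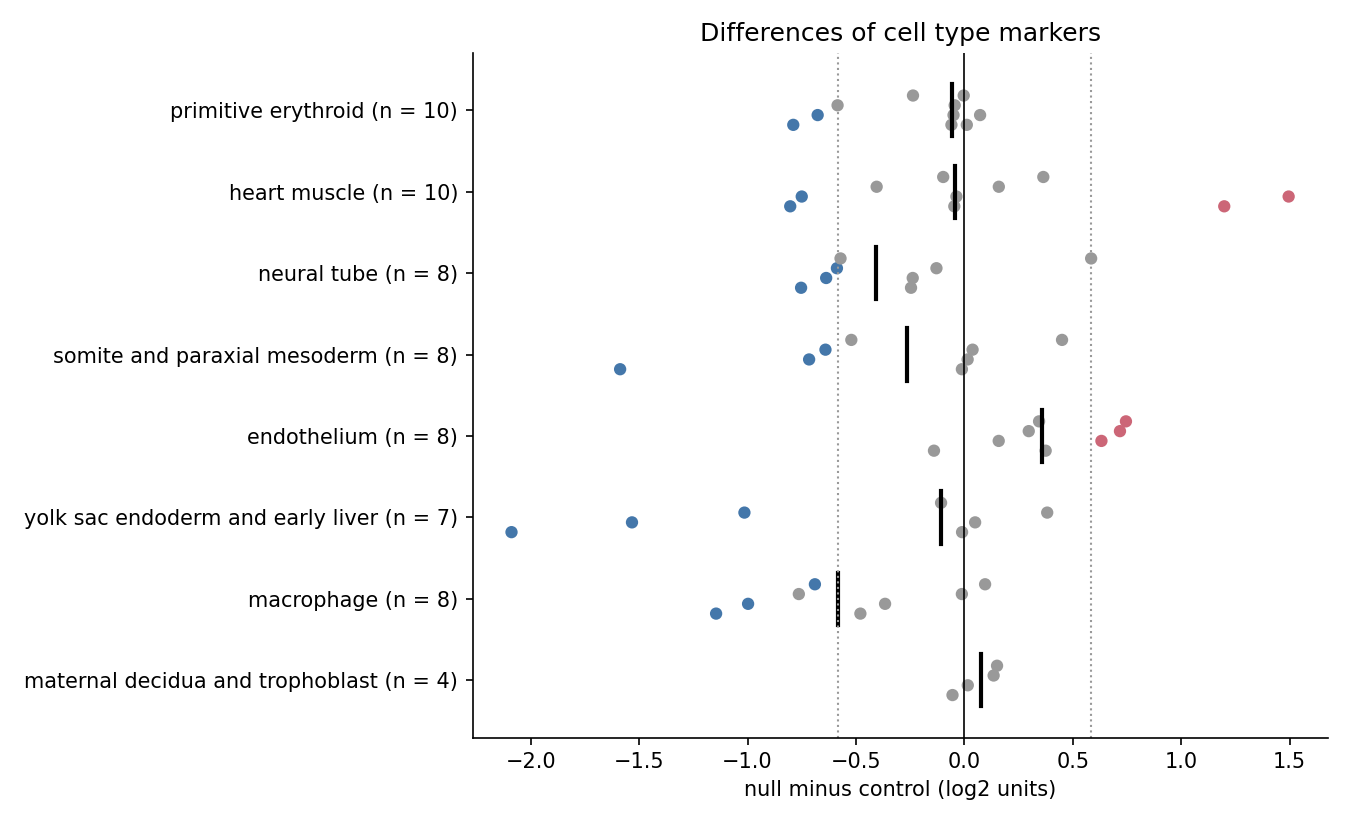
Difference between the null and control pools (log2 units) for each marker of 8 cell types, with 1 point per gene, red for rises, blue for falls and grey for no call; black bars are medians and dotted lines the 1.5-fold limits. Erythroid markers lie around 0 except Klf1, Epb42 and Tal1, and the largest fall is that of Alb (-2.09), in the list of yolk sac endoderm and early liver.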

How the data were processed

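Gene expression was measured on 4 Affymetrix arrays, 2 per RNA pool. The authors deposited log2 values; the submitters' processing notes name RMA and affy, an R package, without versions. RMA brings the probe intensities of the arrays to a common distribution before it combines them into probe sets, whose medians still differed slightly (6.03 in controls, 6.10 and 6.09 in nulls), so the values do not measure total RNA per embryo. The table held 45101 probe sets, and 64 Affymetrix controls were left out of the tests. Names came from GEO's platform annotation (34945 probe sets with 1 gene, 932 with several, 9160 unlisted), and all 10 symbols matched the RefSeq table of GRCm38.p6 by gene number.

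limma 3.58.1 in R 4.3.3 (lmFit, eBayes, genotype as the term, 2 residual degrees of freedom) was fitted to all 45037 probe sets, with Benjamini-Hochberg adjustment over them, and was tested on simulated data. The array number limits the precision. Named were the 10 genes, Cop1, up to 6 called targets and up to 4 called genes of each other list (the 2 with the largest change where none was called), and other genes chosen after their values were seen. Members and lists were chosen with earlier results of these data known. Replicate numbers did not pair the arrays. Alternatives covered scaling, dim probe sets, the variance prior, the fold limit, gene summary, a replicate block and each array left out.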

Additional observations from a re-analysis of the deposited data

How the results depend on the processing

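Calls by list and direction, which are small numbers, moved by over 1.5 times under several alternatives. With a fold limit of 2 the calls were 2 of the 10 genes (Ddit3 and Chac1), 4 of 23 probe sets, 24 pathway list genes and 561 of all genes, and with a limit of 1.2 they were 69 and 5792 for the latter pair. Poly-A centring gave 3567 calls over all genes (352 rises, 3215 falls) and 6 macrophage marker falls in place of 3, and the medians of the spikes were 7.40 and 7.63 in controls and 7.67 and 7.83 in nulls. The sign turned for Atf5 with poly-A centring (-0.18), which shifts all differences by the same amount. It turned for Eif2ak3 with quantile normalization once more (0.0089), where the cause was not tested. For Eif2ak4 it turned with the mean of its probe sets (0.93), which takes in the one at 1.94. Eif2ak1 lost its call with that mean (-0.18), and Ppp1r15a with poly-A centring (0.49). When each array was left out in turn, 5 of the 10 genes were called each time, 8 to 9 probe sets, 40 to 44 pathway list genes and 1952 to 2074 genes overall. With the replicate number as a block 5 of the 10 genes were called and 2102 of all genes, and it changed no call of the 10. The numbers only name the portions, as deviations of same-numbered arrays correlated at 0.06. Among genes named from lists, calls were also lost by C1qb without null replicate 1 (-0.92), and by Nfe2l2 (0.56), Nfil3 (0.58), Usp11 (0.51) and Kdr (0.51) with poly-A centring. With the mean of a gene's probe sets 5 falls in the pathway lists became 1, and calls were lost by Eif2b2 (-0.55), Trib1 (-0.57), Trib2 (-0.50), Crebzf (0.28) and Atf6 (0.45), and the sign of Slc38a2 turned (0.21). Crebzf (0.54) and Atf6 (0.54) missed the fold limit with poly-A centring too. The main limit is that 2 pools were compared, with no replicate of the genotype.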
